A study of Mus musculus with 8 samples.

Results

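Branched-chain amino acid oxidation was followed in the liver through 10 genes, picked by name for their place in the pathway, though with earlier results of these data known. All 10 were among the 11784 genes that the authors listed. Poly(A) RNA had been sequenced from the livers of male C57BL/6J mice, an inbred strain, after 4 months on amino acid-defined diets begun at 9 weeks of age. The Control diet (TD.140711) was given to 4 mice, F129, F2212, F7111 and F2110. The Low AA diet (TD.140712), in which amino acids supplied a smaller and carbohydrates a larger share of calories at nearly the same share of fat, was given to 4 mice, H1126, H828, H817 and H1315. No mouse carried a transgene according to the labels, and all were killed after a fast of about 16 hours, so neither the fed state nor females were measured. The comparison asks which liver transcripts differ between these diets. Values are called scaled read counts here: judged from the numbers, they are read counts per gene multiplied by a factor for each mouse and rounded, and how the factor was set is not given in the sources used here.

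Leucine, isoleucine and valine are first transaminated, mostly outside the liver, and the branched-chain keto acids that result are oxidized in mitochondria, in large part in hepatocytes. The committed step is run by the branched-chain alpha-keto acid dehydrogenase complex. Its E1 part, a thiamine-dependent decarboxylase, is built from the alpha subunit Bckdha and the beta subunit Bckdhb, its E2 core is the lipoate-bearing transacylase Dbt, and its E3 part is Dld, a dihydrolipoamide dehydrogenase shared with other complexes. The kinase Bckdk phosphorylates and switches off E1, and the phosphatase Ppm1k reverses this. Downstream, separate arms handle the carbon of each amino acid: Ivd and Mccc1 act on leucine, Acadsb on isoleucine and Hibch on valine.

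None of the 10 genes passed an adjusted p under 0.05 in limma, a linear model fitted to log2(value + 1) over all listed genes with Benjamini-Hochberg adjustment, where 0.399% of all genes passed. At an unadjusted p under 0.05 there was 1 of the 10, Acadsb, against 11.8% of all genes. Acadsb was also the only one of the 10 in which the 4 Low AA mice did not overlap the 4 Control mice, a pattern seen in 6.81% of all genes, 3.55% with the Low AA mice lower and 3.26% with them higher. With 1 gene of 10 in each count, the unadjusted share lay near its background, and the share without overlap was above its background by less than 1 gene. The log2 fold changes, Low AA minus Control, ran from -0.51 for Acadsb to 0.22 for Bckdhb, with 7 negative and 3 positive. Their median was -0.12, beside 0.00 over all genes, of which 50.5% were positive. Standard errors (SE) of the 10 lay between 0.09 and 0.23 on the log2 scale, and the 95% intervals given with single genes show which differences the data allow.

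**Figure D1:**
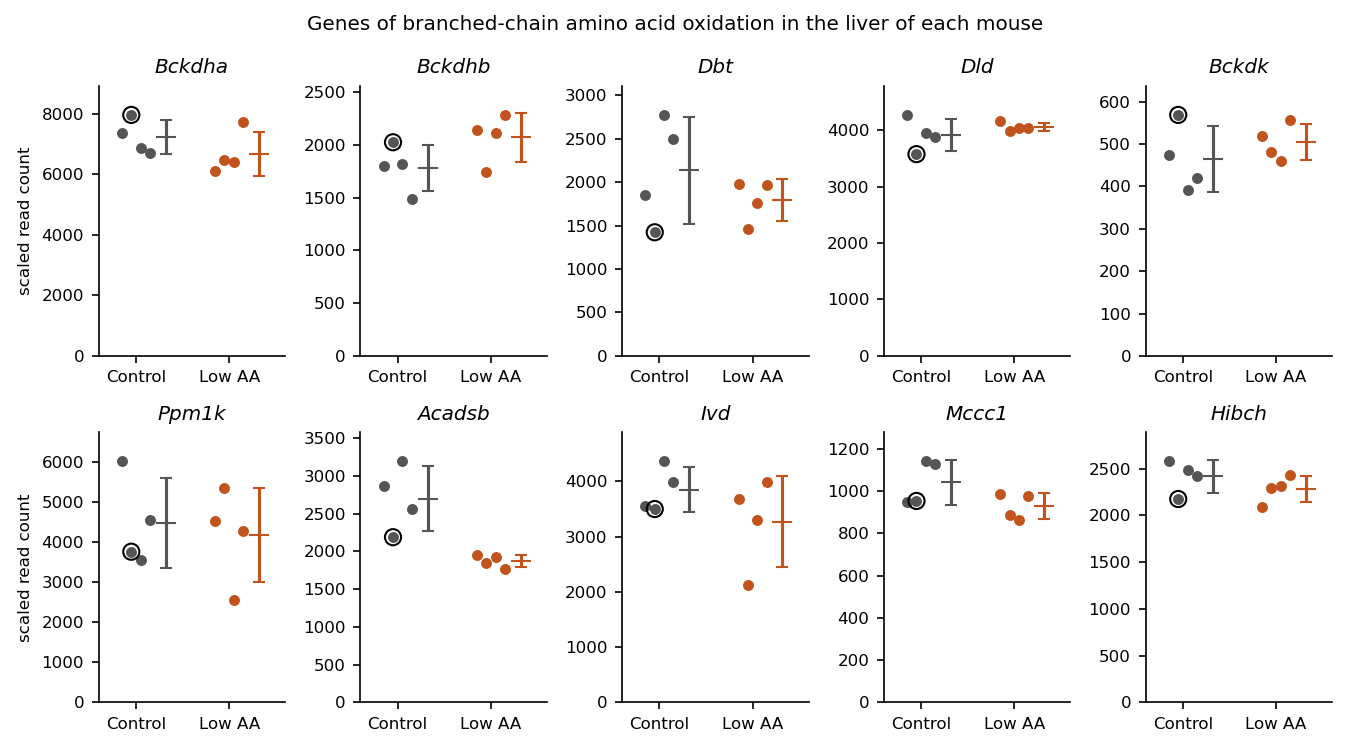
Scaled read count (y axis, from 0) of each of the 10 genes in the 4 Control and 4 Low AA mice; each point is a mouse, bars give the mean and SD, and the ringed point is Control mouse F2212. Only in Acadsb did all Low AA mice, at 1773 to 1956, lie below all Control mice, at 2189 to 3193.

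Acadsb encodes short/branched-chain acyl-CoA dehydrogenase, the flavoenzyme that oxidizes the isoleucine-derived acyl-CoA. Its scaled read counts were 1956, 1841, 1929 and 1773 in Low AA mice H1126, H828, H817 and H1315, and 2861, 2189, 3193 and 2556 in Control mice F129, F2212, F7111 and F2110. All 4 Low AA mice were lower than every Control mouse, and they were also closer together, with a coefficient of variation of 4.47% against 15.9% in the Control mice. The means were 1875 ± 83.7 and 2700 ± 428 (SD, n = 4 each). Low AA minus Control was -0.51 in log2 units (SE 0.12, limma adjusted p = 0.114). On the linear scale this is a difference of -29.9%, with a 95% interval from -41.7% to -15.7% that is not corrected for the number of genes. For the gene alone, the two-sided p was 0.0286 in an exact permutation test, the lowest value possible with 4 mice in each group. Every gene without overlap between the diets gets this p, so it restates the lack of overlap. In size, the log2 fold change was larger than that of 93.4% of all genes.

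Control mouse F2212 had the Control value nearest to the Low AA mice. Without it, the log2 fold change of Acadsb was -0.61 with a limma adjusted p of 0.0369, and with any other mouse left out the adjusted p lay above 0.05, up to 0.306. F2212 stood apart in genes that do not belong to the pathway. Cela1, a pancreatic elastase gene, was at 36587 in F2212 and at 130 to 288 in the other mice, and the acute-phase gene Saa1 was at 57733 in F2212. Saa1 was at 1068 to 2818 in F129, F7111 and F2110, and on Low AA it was at 68 to 770. Every Low AA mouse thus lay below every Control mouse in Saa1, with or without F2212 (log2 fold change -3.49, limma adjusted p = 0.261). Orm1, another acute-phase gene, was highest in F2212 at 16131, and its values in the Low AA mice, 955 to 5794, all lay below those in the Control mice, 8111 to 16131 (log2 fold change -2.06, limma adjusted p = 0.0908). The part of these genes' differences, between the diets and in F2212, in the Acadsb result was not tested.

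Ivd, isovaleryl-CoA dehydrogenase, carries out the matching oxidation for leucine. Its scaled read counts were 3678, 2121, 3310 and 3986 in Low AA mice H1126, H828, H817 and H1315, and 3564, 3501, 4363 and 3986 in Control mice F129, F2212, F7111 and F2110. The diets overlapped widely, with H1315 equal to F2110, and the lowest value came from H828. The log2 fold change was -0.27 (SE 0.18, limma adjusted p = 0.633), and without H828 it was -0.07. The 2 dehydrogenases are shown here with the 300 bases around their start sites (250 before and 50 after the start, from RefSeq on GRCm38.p6), because they catalyse like steps and differed in whether the diets overlapped. Capitals mark 2 motifs searched on both strands, CCAAT (also read as ATTGG) and GGGCGG (also read as CCGCCC), whose copies may overlap. The Acadsb window is chr7:131410351-131410650 on the plus strand and the Ivd window chr2:118861744-118862043 on the plus strand.
Acadsb: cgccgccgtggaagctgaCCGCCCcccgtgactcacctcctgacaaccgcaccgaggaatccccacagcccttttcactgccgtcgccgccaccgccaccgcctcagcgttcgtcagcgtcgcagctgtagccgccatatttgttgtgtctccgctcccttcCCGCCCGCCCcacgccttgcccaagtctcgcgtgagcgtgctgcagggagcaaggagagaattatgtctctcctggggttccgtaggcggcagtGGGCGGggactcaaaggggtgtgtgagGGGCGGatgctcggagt
Ivd: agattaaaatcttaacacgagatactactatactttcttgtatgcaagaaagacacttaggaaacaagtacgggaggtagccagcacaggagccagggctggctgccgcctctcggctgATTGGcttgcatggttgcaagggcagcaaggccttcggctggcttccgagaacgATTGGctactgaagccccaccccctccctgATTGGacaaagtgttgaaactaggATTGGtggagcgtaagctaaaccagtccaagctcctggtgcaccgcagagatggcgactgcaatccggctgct
The Acadsb window held 5 copies of GGGCGG and none of CCAAT, and the Ivd window 4 copies of CCAAT and none of GGGCGG. Of 32851 windows of this length, 37.4% held CCAAT and 35.7% held GGGCGG. Windows were found for 9 of the 10 genes, all but Dbt, and 6 of these 9 genes held CCAAT and 5 held GGGCGG. Acadsb had 29 CG dinucleotides and Ivd 11, beside a median of 7 over all windows. In the windows of the other genes this count ran from 2, in a Bckdhb window, to 20 in Hibch. The Hibch window, like that of Acadsb, held GGGCGG, in 6 copies, and no CCAAT. In Hibch the diets overlapped. Whether the motifs or CG dinucleotides bear on the differences between diets was not tested.

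Mccc1, the biotin-bearing subunit of methylcrotonyl-CoA carboxylase, follows Ivd in the leucine arm. It was at 984, 887, 864 and 976 in Low AA mice H1126, H828, H817 and H1315, and at 947, 953, 1140 and 1129 in Control mice F129, F2212, F7111 and F2110. Of the Control mice, F129 and F2212 lay inside the Low AA range and F7111 and F2110 above it, and the log2 fold change was -0.16 (SE 0.10, limma adjusted p = 0.603). Hibch releases free 3-hydroxyisobutyrate from its CoA ester in the valine arm. It was at 2088, 2289, 2308 and 2430 in Low AA mice H1126, H828, H817 and H1315, and at 2576, 2174, 2488 and 2422 in Control mice F129, F2212, F7111 and F2110. These ranges overlapped, with a log2 fold change of -0.08 and a 95% interval from -0.29 to 0.12 (limma adjusted p = 0.80).

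Among the subunits of the dehydrogenase complex the alpha and beta subunits of E1 had fold changes of opposite sign. Bckdha was at 6107, 6469, 6401 and 7722 in Low AA mice H1126, H828, H817 and H1315, and at 7377, 7964, 6856 and 6712 in Control mice F129, F2212, F7111 and F2110. The first 3 of these Low AA mice lay below all Control mice and H1315 lay among them, giving a log2 fold change of -0.12 (SE 0.10, limma adjusted p = 0.74). Bckdhb was at 2143, 1746, 2111 and 2283 in the same Low AA mice and at 1798, 2024, 1814 and 1486 in the same Control mice. Here 3 Low AA mice lay above all Control mice and H828 lay within their range, with a log2 fold change of 0.22 (SE 0.12, limma adjusted p = 0.538) and a 95% interval from -0.05 to 0.49.

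The ratio of Bckdha to Bckdhb within a mouse does not depend on the scaling of that mouse. It was 2.85, 3.71, 3.03 and 3.38 in Low AA mice H1126, H828, H817 and H1315, and 4.10, 3.93, 3.78 and 4.52 in Control mice F129, F2212, F7111 and F2110. Every Low AA mouse was below every Control mouse, by a narrow margin between 3.71 in H828 and 3.78 in F7111, with means of 3.24 ± 0.379 and 4.08 ± 0.318 (SD, n = 4 each) and a difference in log2 ratio of -0.34. With any mouse left out this difference stayed between -0.40 and -0.28. The ratio was singled out after its values were seen, and no test was made of it. Of the 6 ratios between subunits of the complex it was the only one without overlap between diets, and of the 45 ratios among all 10 genes 7 had no overlap, where 7.50% of all pairs of listed genes had none. Of those 7, 4 were ratios with Acadsb, and of the 36 ratios without Acadsb 3 had no overlap, a share near that of all pairs. The ratios are not independent, since they share genes. In GENCODE M21, 1171 of the 1899 exonic bases of Bckdha lie opposite exons of B3gnt8, and the strand setting of the counting is not given in the sources used here. B3gnt8 was listed at 20 to 37 in the 8 mice, far below Bckdha, with a 95% interval of its log2 fold change from -0.53 to 0.53.

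**Figure D2:**
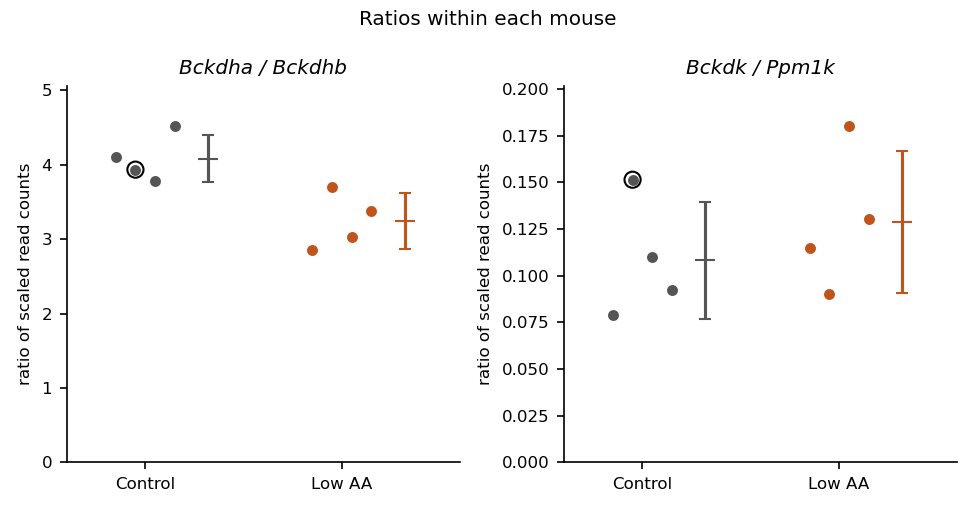
Ratio of scaled read counts within each mouse (y axis, from 0) for Bckdha over Bckdhb, the subunits of E1, and for Bckdk over Ppm1k, kinase over phosphatase; points are mice, bars are mean and SD, and Control mouse F2212 is ringed. The E1 ratios were 2.85 to 3.71 on Low AA and 3.78 to 4.52 on Control, whereas the kinase to phosphatase ratios overlapped.

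Dbt, the E2 core, was at 1981, 1465, 1757 and 1969 in Low AA mice H1126, H828, H817 and H1315, and at 1849, 1423, 2774 and 2499 in Control mice F129, F2212, F7111 and F2110. The spread lay mostly in the Control mice, where F7111 and F2212 lay farthest apart and the coefficient of variation was 28.7%, the largest of the 10 genes on this diet. The log2 fold change was -0.22 (SE 0.20, limma adjusted p = 0.75). It was -0.39 without F2212 and -0.07 without F7111. Dld, E3, was the steadiest gene of the 10 on the Low AA diet. It was at 4161, 3979, 4040 and 4044 in Low AA mice H1126, H828, H817 and H1315, a coefficient of variation of 1.88%, and at 4271, 3576, 3958 and 3872 in Control mice F129, F2212, F7111 and F2110. Its log2 fold change was 0.05 with a 95% interval from -0.14 to 0.24 (limma adjusted p = 0.874), which on the linear scale runs from -9.27% to 18.5%.

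Of the opposing regulators, Bckdk was at 520, 482, 461 and 557 in Low AA mice H1126, H828, H817 and H1315, and at 475, 569, 391 and 421 in Control mice F129, F2212, F7111 and F2110. The highest and the lowest value both came from Control mice, and the log2 fold change was 0.13 (SE 0.13, limma adjusted p = 0.772). Ppm1k was at 4524, 5345, 2561 and 4275 in Low AA mice H1126, H828, H817 and H1315, and at 6010, 3758, 3550 and 4557 in Control mice F129, F2212, F7111 and F2110. It varied more between mice of a diet than any other of the 10 on the Low AA diet, 28.0%, and its log2 fold change of -0.12 (SE 0.23, limma adjusted p = 0.898) turned to 0.10 without H817 and to 0.04 without F129. The ratio of Bckdk to Ppm1k was 0.129 ± 0.0379 on Low AA and 0.108 ± 0.0315 on Control (SD, n = 4 each), and its highest value in each diet, 0.18 in H817 and 0.151 in F2212, lay well above its lowest, 0.0902 in H828 and 0.079 in F129. The diets overlapped in this ratio.

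**Figure D3:**
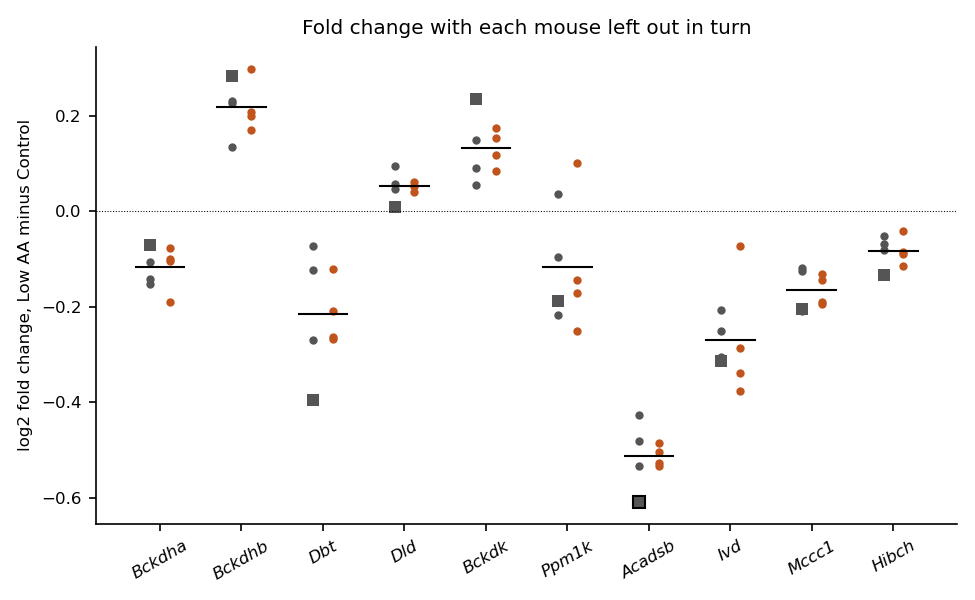
Log2 fold change (Low AA minus Control, y axis) of each gene with all 8 mice (black line) and with 1 mouse left out (grey points, a Control mouse; orange points, a Low AA mouse; squares, without F2212; black outline, adjusted p under 0.05). Acadsb stayed between -0.61 and -0.43 and passed only without F2212, and Ppm1k changed sign in 2 of the 8 fits.

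The small log2 fold changes also moved with single mice, without a change of sign or a call. Bckdk ran from 0.06 without F7111 to 0.24 without F2212, and Dld from 0.01 without F2212 to 0.09 without F129. Bckdha ran from -0.19 without H1315 to -0.07 without F2212, and Bckdhb from 0.14 without F2110 to 0.30 without H828. Hibch ran from -0.13 without F2212 to -0.04 without H1126, and Mccc1 from -0.21 without F129 to -0.12 without F7111.

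No mouse was high or low throughout. In the Control group F2212 had the lowest value in 5 genes (Dbt, Dld, Acadsb, Ivd and Hibch) and the highest in 3 (Bckdha, Bckdhb and Bckdk). F7111 had the highest in 4 (Dbt, Acadsb, Ivd and Mccc1) and the lowest in both regulators. In the Low AA group H1315 was highest in 5 genes and lowest in Acadsb, and H828 was lowest in 4 genes, 3 of them subunits of the complex. The median over the 10 genes of the difference from the Control mean, in log2, ran from -0.19 in H817 to 0.03 in H1315 among Low AA mice and from -0.13 in F2212 to 0.04 in F7111 among Control mice.

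Levels were compared between genes as scaled read counts per kb of the principal GENCODE transcript, as means over the 8 mice. Where several transcripts of a gene were tagged as principal, the longest was used. Bckdha was highest at 3660 per kb, above every value of any other gene. Dld followed at 1567, Bckdhb at 1308, Hibch at 1282, Ivd at 972, Ppm1k at 777, Dbt at 595, Mccc1 at 401 and Acadsb at 376, and from Dld to Acadsb each gene's range over mice overlapped that of the next. Bckdk was lowest at 142 per kb, with its 8 mice between 115 and 167, below all values of the other genes. With all annotated exons in place of the principal transcript, Hibch moved from rank 4 to rank 7 and Mccc1 from rank 8 to rank 10, below Bckdk. The genes lie on 7 chromosomes of GRCm38: Bckdha at chr7:25629946-25658981, Bckdk at chr7:127904082-127910221, Acadsb at chr7:131410601-131448944, Bckdhb at chr9:83925145-84124240, Dbt at chr3:116513070-116549981, Mccc1 at chr3:35959312-36000678, Dld at chr12:31331277-31351453, Ppm1k at chr6:57506502-57535468, Ivd at chr2:118861954-118882909 and Hibch at chr1:52844929-52920986.

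Around the 10 genes, 20 further genes of the pathway had been listed by function, from transamination through the leucine, valine and isoleucine arms to propionyl-CoA, and 19 of them were measured, all but Bcat1. None passed the adjusted threshold in limma, 4 had an unadjusted p under 0.05 (11.8% of all genes did), and the median log2 fold change was -0.06, with 6 positive and 13 negative. Auh, the hydratase after methylcrotonyl-CoA carboxylase, was at 618, 581, 503 and 717 in the Low AA mice and at 772, 778, 711 and 752 in the Control mice (log2 fold change -0.33, limma adjusted p = 0.296). Hibadh, which follows Hibch in the valine arm, had -0.27 (limma adjusted p = 0.378), and Mmab, a cobalamin enzyme, -0.27 (limma adjusted p = 0.422). Mmadhc, which routes cobalamin to its enzymes, had 0.32 (limma adjusted p = 0.33). In 2 of the 19 genes, named after their values were seen, the diets did not overlap, by narrow margins, beside 6.81% of all genes. Mccc2, the partner subunit of Mccc1, was at 1290 to 1666 on Low AA and 1668 to 1880 on Control (log2 fold change -0.23, limma adjusted p = 0.439), and Acat1, the thiolase that ends isoleucine breakdown and also serves ketone bodies, was at 23257 to 26583 and 20190 to 22898 (log2 fold change 0.19, limma adjusted p = 0.483).

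**Figure D4:**
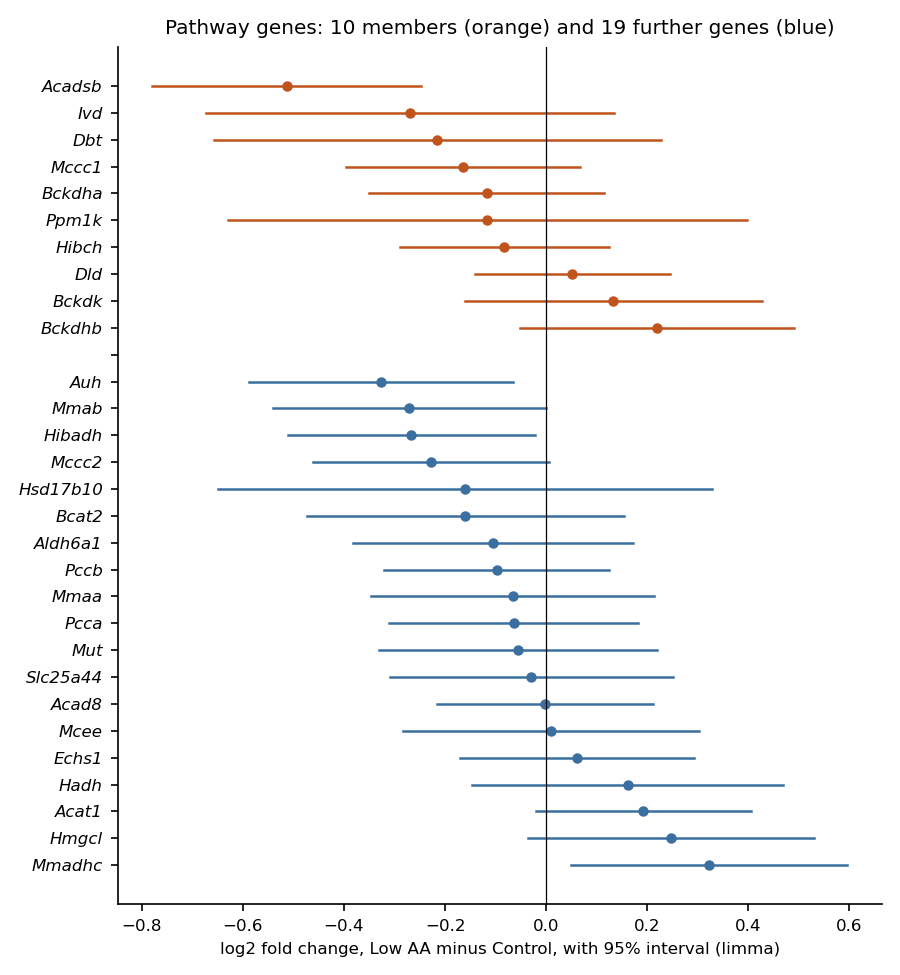
Log2 fold change (x axis, Low AA minus Control) with its 95% limma interval for the 10 genes (orange) and 19 further genes of the pathway (blue), each sorted by value. The intervals of Acadsb, Auh, Hibadh, Mmab and Mmadhc exclude 0 before adjustment, and none of the 29 genes passed after it.

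Acadsb and Ivd hand their electrons to the electron transfer flavoprotein and from there to Etfdh, its ubiquinone oxidoreductase, which also serves fatty acid oxidation. Etfdh was at 23542, 22944, 22628 and 22232 in Low AA mice H1126, H828, H817 and H1315, and at 17617, 17064, 17179 and 17361 in Control mice F129, F2212, F7111 and F2110. The mice of each diet lay close together and the diets far apart for their spread, 22837 ± 553 and 17305 ± 241 (SD, n = 4 each). The log2 fold change was 0.40 (SE 0.08, limma adjusted p = 0.0831), in the direction opposite to that of Acadsb, and it did not pass. Among the 10 genes for lipoate, biotin, thiamine and electron transfer, none passed in limma, 2 had an unadjusted p under 0.05 (11.8% of all genes) and did not overlap between diets (6.81% of all genes), and the median was 0.04. The other of these was Btd, which recycles biotin, at 2335 to 2790 on Low AA and 1796 to 2330 on Control (log2 fold change 0.33, limma adjusted p = 0.258). Lipt1, a lipoyltransferase, had -0.24 (limma adjusted p = 0.628).

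The pyruvate, 2-oxoglutarate and 2-oxoadipate dehydrogenase complexes and the glycine cleavage system all use Dld. Of 17 genes listed for them, with the kinases and phosphatases of pyruvate dehydrogenase, 16 were measured, all but Pdk3. None passed in limma, 2 had an unadjusted p under 0.05 (11.8% of all genes), 1 had no overlap between diets (6.81% of all genes), and the median log2 fold change was 0.06. Dlat, the pyruvate dehydrogenase counterpart of Dbt, was at 1340, 1351, 1410 and 1266 in Low AA mice H1126, H828, H817 and H1315, and at 1069, 1059, 1177 and 1078 in Control mice F129, F2212, F7111 and F2110, without overlap (log2 fold change 0.29, limma adjusted p = 0.198). Pdk4, a kinase that acts on pyruvate dehydrogenase as Bckdk does on E1 of the branched-chain complex, was at 2889, 5599, 3039 and 1102 on Low AA and 2419, 670, 545 and 1265 on Control (log2 fold change 1.40, standard error 0.53, limma adjusted p = 0.324). For Pdha1, a subunit of pyruvate dehydrogenase, the difference was 0.19 in log2 units (limma adjusted p = 0.556). Of 4 transcription factors that act on genes of this pathway in liver, none passed in limma or had an unadjusted p under 0.05. Ppara, Klf15 and Nr3c1 had log2 fold changes of 0.23, 0.16 and 0.10 (limma adjusted p = 0.538, 0.678 and 0.824). The fourth, Mlxipl, had -0.02 (limma adjusted p = 0.979).

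**Figure D5:**
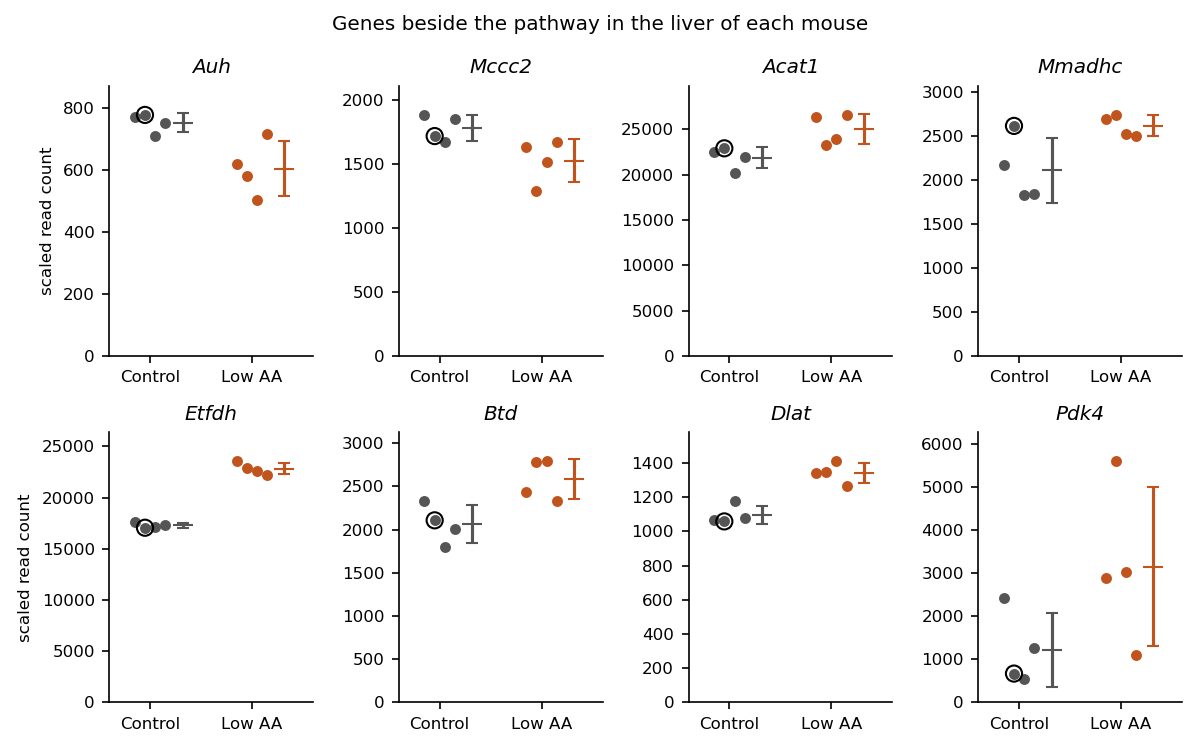
Scaled read count (y axis, from 0) of 8 genes beside the 10, in the 4 Control and 4 Low AA mice, with mean and SD; Control mouse F2212 is ringed. Etfdh showed the tightest groups, at 22232 to 23542 on Low AA and 17064 to 17617 on Control, and Pdk4 the widest.

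Totals over listed genes were 27876664 to 30799385 scaled read counts per mouse and medians 433.0 to 449.0. Of the hepatocyte markers, 6 of 6 were listed, with summed levels of 2471133 to 2687925 on Low AA and 2231096 to 2670632 on Control. Summed markers of macrophages (7664 to 10923 and 7209 to 10728), stellate cells (7608 to 9585 and 7386 to 9553) and endothelial cells (5321 to 5865 and 4307 to 6228) overlapped between the diets, as did the sums for cholangiocytes (3 of 4 listed, 71 to 145 and 141 to 234), blood (4 of 5, 9211 to 13541 and 7206 to 27464) and adipose tissue (1 of 4, 4271 to 5630 and 2112 to 5711). Of the pancreas markers 1 of 5 was listed, Cela1, and of the muscle markers 0 of 4. Single markers differed more than these sums, which rest mostly on a few abundant genes, and none passed in limma. Log2 fold changes were positive for 6 of 6 macrophage markers and negative for 5 of 6 stellate, 3 of 3 cholangiocyte and 4 of 4 blood markers. Those with an unadjusted p under 0.05 were the collagen genes Col1a1 (37 to 69 on Low AA and 70 to 147 on Control, log2 fold change -1.07) and Col1a2 (-0.58), the cholangiocyte genes Sox9 (-1.05) and Krt19 (-0.87), the erythroid genes Alas2 (-0.49) and Hba-a1 (-0.72), and the macrophage gene Emr1 (0.29). Col1a1 and Alas2 did not overlap between diets, by narrow margins of 69 against 70 and 1332 against 1362, and the other marker lists held no such gene. Over all genes, 11.8% had an unadjusted p under 0.05 in limma, 6.81% did not overlap and 50.5% had a positive log2 fold change. The part of such markers in the values of the 10 genes was not tested. In whole liver, fewer cells of a type and less RNA per cell cannot be told apart.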

How the data were processed

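Stranded poly(A) libraries of 8 livers were sequenced, and the authors deposited 1 table of 11784 genes. The submitters' processing notes list bcl2fastq 1.8.2, STAR 2.5.0a, RSEM 1.2.6, edgeR 3.10.5, R 3.2.1 and mm10, without roles. Each value in the table that the authors deposited was treated as a score, a scaled and rounded read count. Medians were nearly equal, and in H817 a whole number was skipped (the values 62, 63 and 64 were held by 33, 0 and 33 genes). Count models were therefore not used, and precision rests on the spread between mice. Every gene reached 28 in at least 3 mice, so low genes had been removed. The deposited signed fold change score and FDR, a q-value of the authors' own comparison, were not used.

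Each mouse was 1 replicate, grouped by its diet label. log2(value + 1) was fitted in limma (3.58.1, under R 4.3.3) using moderated variances that follow the mean, and p-values were adjusted over all genes (Benjamini-Hochberg). Single-gene exact permutation tests used scipy 1.17.1. The fit was tested on simulated data. Positions and lengths came from GENCODE M21 (GRCm38), older symbols from a RefSeq table. Alternatives were pseudocounts of 0.1 and 5, the 8000 genes of highest mean, equal totals, median ratio scaling, robust moderation, no trend, vooma weights and each mouse left out. The 10 genes and all lists were chosen with earlier results of these data known. Named were the 10 genes and, from the pathway, complex, cofactor and transcription factor lists, genes with an unadjusted p under 0.05 and the 3 largest log2 fold changes. From the marker lists, only genes with an unadjusted p under 0.05 were named, and Cela1, Saa1 and Orm1 were named for F2212. Mccc2, Acat1, B3gnt8, Mlxipl and the ratio of Bckdha to Bckdhb were added after values were seen. Figures were drawn with matplotlib 3.10.9.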

Additional observations from a re-analysis of the deposited data

Results flagged for a closer look

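Of 52 groups of 4 mice examined, 1 had a mouse far from the rest, and chance gives about 1 in 20. That mouse was Control mouse F7111 in Dlat, at 1177, above the other 3 Control mice, at 1059 to 1078. The gap was 0.832 of the whole range on the log2 scale. The groups examined did not take in Cela1 or Saa1. In Cela1, Control mouse F2212 stood apart at 36587, beside 130 to 178 in the other Control mice. In Saa1, Low AA mouse H828 lay at 68, beside 549 to 770 in the other Low AA mice. None of the 10 genes of branched-chain amino acid oxidation had such a mouse in either diet.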

How the results depend on the processing

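Across the pseudocounts, the filter, both scalings, robust moderation, no trend and vooma weights, none of the 10 genes passed or changed sign, and the adjusted p of Acadsb lay between 0.112 and 0.164. With a mouse left out, the number of the 10 that passed ran from 0 to 1, the 1 being Acadsb without F2212 (log2 fold change -0.61, limma adjusted p = 0.0369), the number without overlap between diets ran from 1 to 2, and Ppm1k ran from -0.25 to 0.10. The second gene without overlap was Bckdhb without H828, Bckdha without H1315 and Dld without F129, when 10.3%, 12.7% and 9.73% of all genes had no overlap. The median of the 10 ran from -0.17 to -0.08, and the difference in log2 ratio of Bckdk to Ppm1k, 0.25, ran from 0.07 without H817 to 0.42 without F2212. None of the other pathway, complex, cofactor and transcription factor genes passed in any of these fits. Over all genes 47 passed, 19 of 8000 with the filter, 30 with no trend, and 16 to 77 with a mouse left out (77 without F2212, 16 without H817). No paired analysis was possible because the labels give no code shared between diets.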
